A study of Mus musculus with 12 samples.

Results

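The unfolded protein response and the integrated stress response were followed here through 10 genes, Hspa5, Dnajb9, Sdf2l1, Herpud1, Xbp1, Atf4, Ddit3, Trib3, Asns and Chac1. They were taken by symbol from a table of 22276 gene symbols, and each symbol occurs once and has a value above 0 in all 12 libraries. The libraries are RNA-seq of total RNA from the white (WAT) and brown (BAT) adipose tissue, liver and quadriceps muscle of male C57BL/6J mice at 17 wk of age. In each organ the NCD-veh library is from mice on a normal chow diet that received vehicle, the HFD-veh library from mice on a high-fat diet from 8 wk of age that received vehicle, and the HFD-ncls library from mice on the same diet that received narciclasine (ncls). Vehicle and ncls (1 mg/kg) were given weekly by oral gavage from 10 wk of age for 7 wk. Each organ and group has 1 library, and the number of mice in a library is not given in the sources used here. There was therefore no spread between replicates and no test, and every difference below is a difference between 2 libraries.

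When unfolded proteins build up in the endoplasmic reticulum (ER), the sensors IRE1, PERK and ATF6 start the unfolded protein response, which raises chaperones and the machinery that removes faulty proteins from the ER. In the integrated stress response, kinases such as PERK and the amino acid sensor GCN2 phosphorylate the translation factor eIF2, which slows protein synthesis in general while the ATF4 protein is made more, and ATF4 then acts on genes of amino acid supply and cell death. Liver has a large secretory ER, obesity is known to engage both responses in liver and fat, and narciclasine is known to inhibit translation at the ribosome. XBP1 and ATF4 are controlled mainly by splicing and by translation of their mRNAs, neither of which a level summed over a gene shows.

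The control elements known for the genes can be read in their promoters, and the stretches that hold a match are shown because they tell which element lies near which gene. The 250 bases before and 50 after each RefSeq start (GRCm38.p6 windows, each found once, unchanged, in mm9) were searched on both strands. ERSE, the ER stress element, was searched as CCAAT and CCACG with 9 free bases between them and occurred in 0.119% of all 32851 promoter windows, ERSE-II as ATTGG and CCACG with 1 free base between them (0.0365%), UPRE as TGACGTGG (0.676%) and CARE, the element that ATF4 binds, as TGATG and AA with 1 free base between them (3.97%). No match overlapped another. Capitals mark the match, and each line reads 5′ to 3′ along the gene.
Hspa5, ERSE: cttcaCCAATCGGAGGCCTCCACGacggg
Herpud1, ERSE-II: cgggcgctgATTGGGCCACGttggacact
Herpud1, CARE on the opposite strand: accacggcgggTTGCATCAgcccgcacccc
Trib3, CARE on the opposite strand: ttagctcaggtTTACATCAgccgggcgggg
Asns, CARE: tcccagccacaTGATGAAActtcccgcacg
Chac1, CARE on the opposite strand: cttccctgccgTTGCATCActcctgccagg

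In mm9 the Hspa5 stretch is chr2:34627540-34627568 on the plus strand, with its match at -65 to -47 from the RefSeq start. The Herpud1 stretches are chr8:96910268-96910296 (match at -52 to -42) and chr8:96910206-96910235 (match at -112 to -105), both on the plus strand. The Trib3 stretch is chr2:152169764-152169793 on the minus strand, with the match after the start, at 15 to 22. The Asns stretch is chr6:7643214-7643243 on the minus strand (match at -23 to -16), and the Chac1 stretch is chr2:119176774-119176803 on the plus strand (match at -193 to -186). The Hspa5 and Asns stretches lie inside the gene limits of the GENCODE annotation of mm9, which starts both genes further upstream. CARE was thus matched in 4 of the 10 windows, 3 of them of integrated stress response genes, ERSE and ERSE-II in 1 window each, and UPRE in none. Dnajb9, Sdf2l1, Xbp1, Atf4 and Ddit3 had no match to these letters in these windows.

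The libraries carried the markers of their organs. FPKM gives fragments scaled by transcript length and by the size of the library. Of 7 hepatocyte markers, 6 had a value in liver (Alb had none) and summed to between 34462 and 36933 FPKM. Of 7 fast-twitch muscle markers, 6 had a value in muscle (Myh4 had none) and summed to between 84868 and 87910 FPKM. The 3 brown adipocyte markers summed to between 1897 and 2298 FPKM in BAT against 5.88 to 9.13 FPKM in WAT. Some libraries also held markers of another organ. Hepatocyte markers stood at 0.625% of their liver level in HFD-veh muscle, against 0.00197% in NCD-veh and 0.000611% in HFD-ncls muscle, and at 0.232% in HFD-ncls WAT. Muscle markers in BAT stood at 1.89%, 0.776% and 0.124% of their muscle level, from NCD-veh through HFD-veh to HFD-ncls, and at 0.0614% in HFD-veh liver. Adipocyte markers in muscle stood at medians of 0.375%, 1.09% and 0.787% of their WAT level in the same order, with wide spread between the 6 markers (0.0441% to 1.82%, 0.420% to 5.11% and 0.150% to 5.83%). The relative depth of the libraries, read from the steps between low values, lay between 0.708 (HFD-ncls WAT) and 1 (HFD-veh muscle). In a bulk sample, fewer cells of a type and less RNA per cell cannot be told apart.

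FPKM is scaled by transcript length, so that levels can be set side by side between genes. Where 3 values follow each other, the first is NCD-veh, the next HFD-veh and the last HFD-ncls. Herpud1 (up to 248 FPKM) and Hspa5 (up to 201 FPKM) reached the highest levels of the 10, and Asns, Trib3 and Chac1 differed most between organs. The highest organ median was 66.4-fold the lowest for Asns, 29.4-fold for Trib3 and 28.0-fold for Chac1, against 2.39-fold for Atf4 and 2.49-fold for Dnajb9. Hspa5, Dnajb9, Sdf2l1 and Asns had their highest median in WAT, Herpud1 and Xbp1 in liver, Ddit3 and Trib3 in BAT, and Atf4 and Chac1 in muscle.

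**Figure D1:**
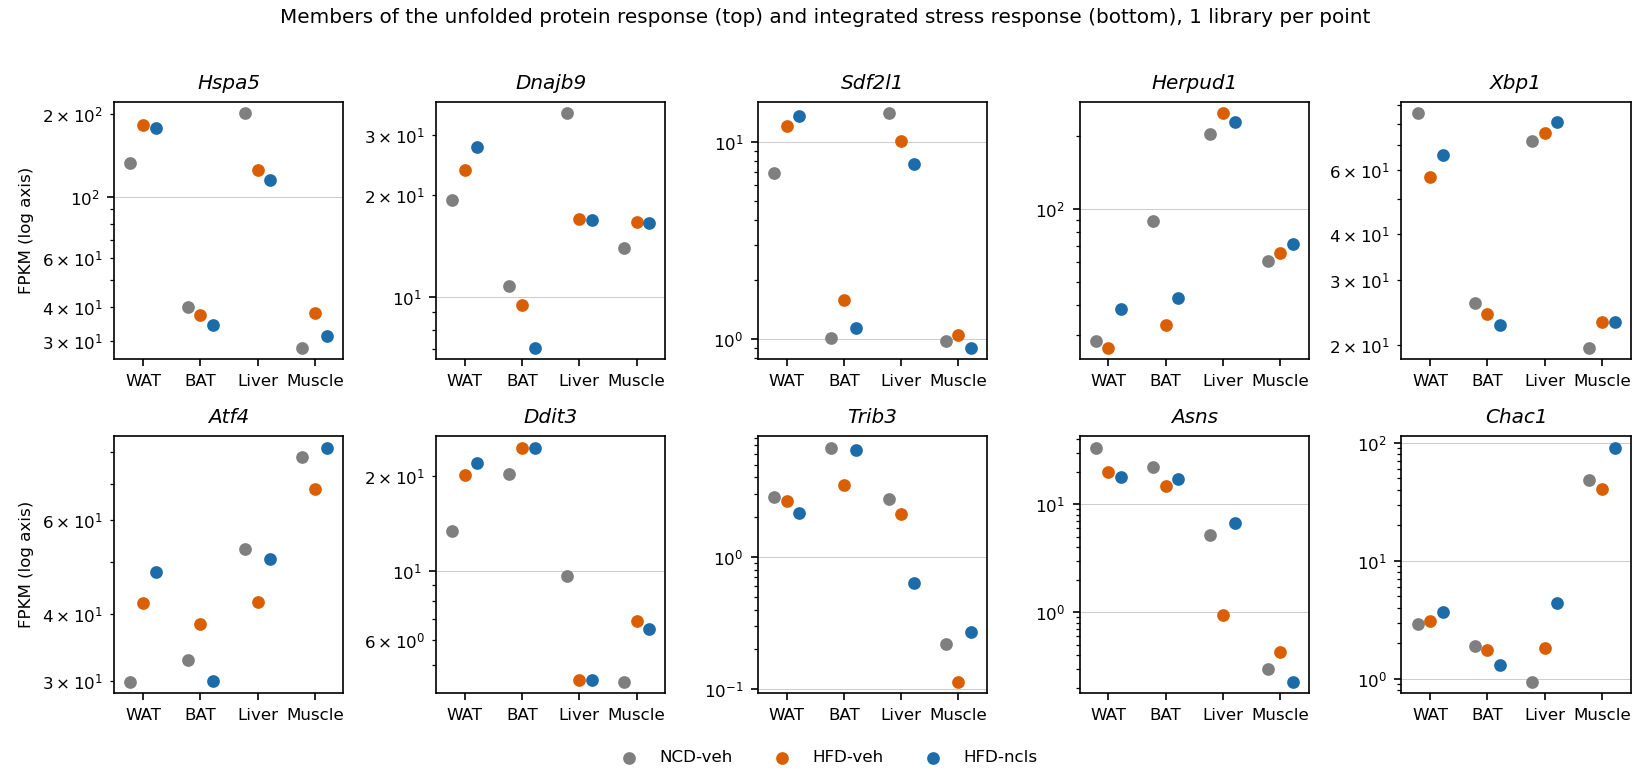
Level of each gene in every library, with FPKM on a log axis against organ and 1 point per library, the groups side by side in each organ; the unfolded protein response genes are in the upper row and the integrated stress response genes in the lower. Chac1 lies between 40.8 and 91.5 FPKM in muscle and between 0.944 and 4.41 FPKM elsewhere, and Asns drops to 0.947 FPKM in HFD-veh liver between 5.21 and 6.65 FPKM in the other liver libraries.

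Hspa5 (chromosome 2, 34627490 to 34632051 in mm9) encodes BiP, the main Hsp70 chaperone of the ER lumen, which also holds the stress sensors inactive. In liver it had 201, 125 and 115 FPKM, and in WAT 133, 183 and 177 FPKM. The high-fat diet thus went with less Hspa5 in liver and more in WAT, and the HFD-ncls library stayed near HFD-veh in both. BAT had 39.7, 37.3 and 34.2 FPKM, and muscle 28.5, 37.8 and 31.3 FPKM. By median the order was WAT, liver, BAT and muscle. The ranges of WAT and liver overlapped, as did those of BAT and muscle, while liver and BAT were apart. The diet difference in liver, HFD-veh minus NCD-veh, was -0.68 in log2(FPKM + 0.1), the scale used for all differences below. The difference was 0.46 in WAT (1.37-fold) and 0.41 in muscle. With ncls, HFD-ncls minus HFD-veh, the Hspa5 differences ran from -0.05 in WAT (1.03-fold) to -0.27 in muscle, all under 1.4-fold.

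Dnajb9 (chromosome 12, 45306884 to 45311055) encodes ERdj4, a J-domain partner of BiP. Liver had 34.8, 17.0 and 16.9 FPKM, so that NCD-veh was about 2-fold above both high-fat libraries. The diet difference in liver was -1.03 and the ncls difference -0.0091. WAT had 19.4, 23.6 and 27.8 FPKM, BAT 10.8, 9.49 and 7.09 FPKM, and muscle 14.0, 16.6 and 16.5 FPKM. No difference outside liver reached 1.4-fold, and the furthest was -0.42 with ncls in BAT. WAT and liver overlapped, and the neighbouring medians of liver (17.0) and muscle (16.5) belonged to ranges that lay close without overlapping. Part of this gene's reads may be shared with another locus, since 13 of 36 pieces of 100 bases from its transcript also aligned to 1 place on chromosome X at 95% identity or more. None of the other 9 genes had such a piece.

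Sdf2l1 (chromosome 16, 17130231 to 17132476) encodes an ER protein that works with chaperone complexes. WAT had 6.93, 11.96 and 13.5 FPKM, and liver 13.9, 10.1 and 7.74 FPKM. With the diet these organs moved in opposite directions, WAT by 0.78 (1.72-fold higher) and liver by -0.46 (1.38-fold lower). WAT was below liver in NCD-veh and above it in HFD-veh. BAT had 1.01, 1.58 and 1.14 FPKM, and muscle 0.976, 1.05 and 0.905 FPKM. The BAT difference with the diet of 0.60 rested on about 26.3 and 39.5 fragments and was 0.36 with a pseudocount of 1. With ncls the differences were -0.44 in BAT and -0.37 in liver, under 1.4-fold in both. WAT and liver overlapped and stood clear of BAT and muscle.

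Herpud1 (chromosome 8, 96910338 to 96919277) encodes an ER membrane protein of the degradation complex that sends faulty proteins to the proteasome. Liver stood above all other organs with 203, 248 and 229 FPKM. BAT had 88.8, 33.0 and 42.6 FPKM. The NCD-veh BAT library was thus the highest outside liver, and its difference to HFD-veh, -1.43 (2.69-fold lower), ranked 85 from the bottom among 10443 genes. Muscle, BAT and WAT followed liver, each overlapping the next. WAT had 28.4, 26.7 and 38.4 FPKM, and muscle 60.9, 65.7 and 71.7 FPKM. In WAT HFD-ncls was 1.43-fold above HFD-veh (0.52), a difference that fell to 0.48, under 1.4-fold, after rescaling by the median of all genes. It was 0.51 after subtracting the share of liver RNA that the WAT markers show. An antisense gene, Gm15890, overlaps Herpud1, and the sources used here do not say whether strand was used in counting.

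Xbp1 (chromosome 11, 5420662 to 5425896) encodes the transcription factor that IRE1 activates by splicing its mRNA, and it is also needed in plasma cells. WAT had 85.4, 57.3 and 65.7 FPKM. Liver had 71.8, 75.6 and 81.1 FPKM, BAT 26.1, 24.3 and 22.6 FPKM, and muscle 19.7, 23.1 and 23.0 FPKM. WAT and liver overlapped at the top and BAT and muscle at the bottom of the order. The only difference past 1.4-fold was the diet difference in WAT, -0.58 (1.49-fold lower). Beside it, the 4 plasma cell markers summed to 10.1, 3.09 and 11.9 FPKM in WAT, with 0 of 4 higher with the diet, 3 of 4 higher with ncls and none at 0. Their part in the Xbp1 difference was not tested.

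Atf4 (chromosome 15, 80085614 to 80087970) encodes the transcription factor at the centre of the integrated stress response. Muscle was the highest organ, with 78.3, 68.3 and 81.7 FPKM, and its range did not meet that of any other organ. Liver had 52.9, 42.2 and 50.6 FPKM, WAT 29.97, 42.0 and 47.9 FPKM, and BAT 32.8, 38.4 and 30.1 FPKM, with overlap between neighbours. The mRNA was the most even of the 10 between organs. In WAT the diet difference of 0.49 was just past 1.4-fold, and it was 0.46 after rescaling by the median of all genes. The ncls differences lay between -0.35 in BAT and 0.26 in liver and muscle.

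Ddit3 (chromosome 10, 126727830 to 126733344) encodes CHOP, a transcription factor linked to cell death in lasting ER stress. Liver had 9.61, 4.47 and 4.46 FPKM. WAT had 13.4, 20.2 and 22.1 FPKM, and muscle 4.42, 6.89 and 6.52 FPKM. The diet therefore went with less Ddit3 in liver, by -1.09 (2.13-fold), and with more in WAT (0.59, 1.51-fold) and muscle (0.63, 1.55-fold). BAT had 20.4, 24.7 and 24.7 FPKM and a diet difference of 0.28. BAT and WAT overlapped at the top of the order, and muscle and liver at the bottom. HFD-ncls lay close to HFD-veh in every organ, with differences between -0.08 in muscle and 0.13 in WAT. In muscle the diet difference was 0.59 after subtracting the RNA that liver and adipocyte markers show. Ddit3 overlaps Mars and RP24-341K21.6 on the other strand.

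Trib3 (chromosome 2, 152163158 to 152169768) encodes a pseudokinase that CHOP and ATF4 induce and that binds AKT. BAT had 6.74, 3.53 and 6.43 FPKM, so that HFD-veh was low between 2 near-equal libraries. The diet difference in BAT was -0.91 and the ncls difference 0.85, and both were computed against the same HFD-veh library. The ncls difference ranked 50 from the top among 10329 genes. Liver had 2.75, 2.10 and 0.635 FPKM, about 118, 86.0 and 27.2 fragments, and here HFD-ncls was the low library, at -1.58 (2.99-fold lower). WAT had 2.84, 2.66 and 2.17 FPKM and overlapped with liver, clear of BAT. Muscle, with 0.219, 0.114 and 0.270 FPKM or about 9.96, 5.43 and 12.7 fragments, did not reach 1 FPKM, and adipocyte RNA at the marker share would carry 25.5% of its HFD-veh level (9.82% to 119% over the range of the markers).

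Asns (chromosome 6, 7625169 to 7643254) encodes asparagine synthetase, a standard readout of ATF4 when amino acids run short. Liver had 5.21, 0.947 and 6.65 FPKM. The HFD-veh liver library was the low one, with about 38.6 fragments against 222 and 283. With the diet the difference was -2.34 (5.08-fold lower, rank 27 from the bottom of 10016 genes), and with ncls 2.69 (6.45-fold higher, rank 8 from the top of 9956 genes). Both differences rest on the same HFD-veh library. WAT had 33.5, 19.8 and 18.0 FPKM, and BAT 21.9, 14.9 and 17.2 FPKM. In both adipose tissues NCD-veh was the highest library, with diet differences of -0.75 in WAT and -0.56 in BAT. The 2 tissues overlapped, and liver and muscle lay below them without overlap. Muscle was under 1 FPKM (0.299, 0.427 and 0.227), of which adipocyte RNA at the marker share would carry 42.0%, 50.7% and 62.4%. Over the range of the markers this ran from 4.95% to 204%, from 19.5% to 237% and from 11.9% to 463%. Asns was thus lower past 1.4-fold with the diet in WAT, BAT and liver. The diet difference of Trib3 in WAT was -0.09 (1.07-fold), on about 109 and 98.7 fragments.

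Chac1 (chromosome 2, 119176965 to 119180117) encodes an enzyme that breaks down glutathione and is induced through ATF4 and CHOP. Muscle had 48.8, 40.8 and 91.5 FPKM, with HFD-ncls 2.24-fold above HFD-veh (1.16, rank 76 of 9694 genes) and 0.91 above NCD-veh. Liver had 0.944, 1.82 and 4.41 FPKM, about 32.7, 60.4 and 152 fragments. In liver it was higher at both steps, by 0.88 with the diet and by 1.23 (2.35-fold) with ncls. WAT had 2.89, 3.07 and 3.70 FPKM, which overlapped with liver. BAT had 1.90, 1.74 and 1.32 FPKM, of which muscle RNA at the marker share would carry 48.6%, 18.2% and 8.58% (37.5% to 54.6%, 14.0% to 24.5% and 6.68% to 10.0% over the range of the markers). Less that share, BAT stood at 0.977, 1.43 and 1.20 FPKM, and the diet difference went from -0.12 to 0.50, so that no direction is given for BAT. In muscle the ncls difference was 1.16 with and without the RNA of other organs, and muscle markers in HFD-ncls liver were at 0.000142% of their muscle level.

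**Figure D2:**
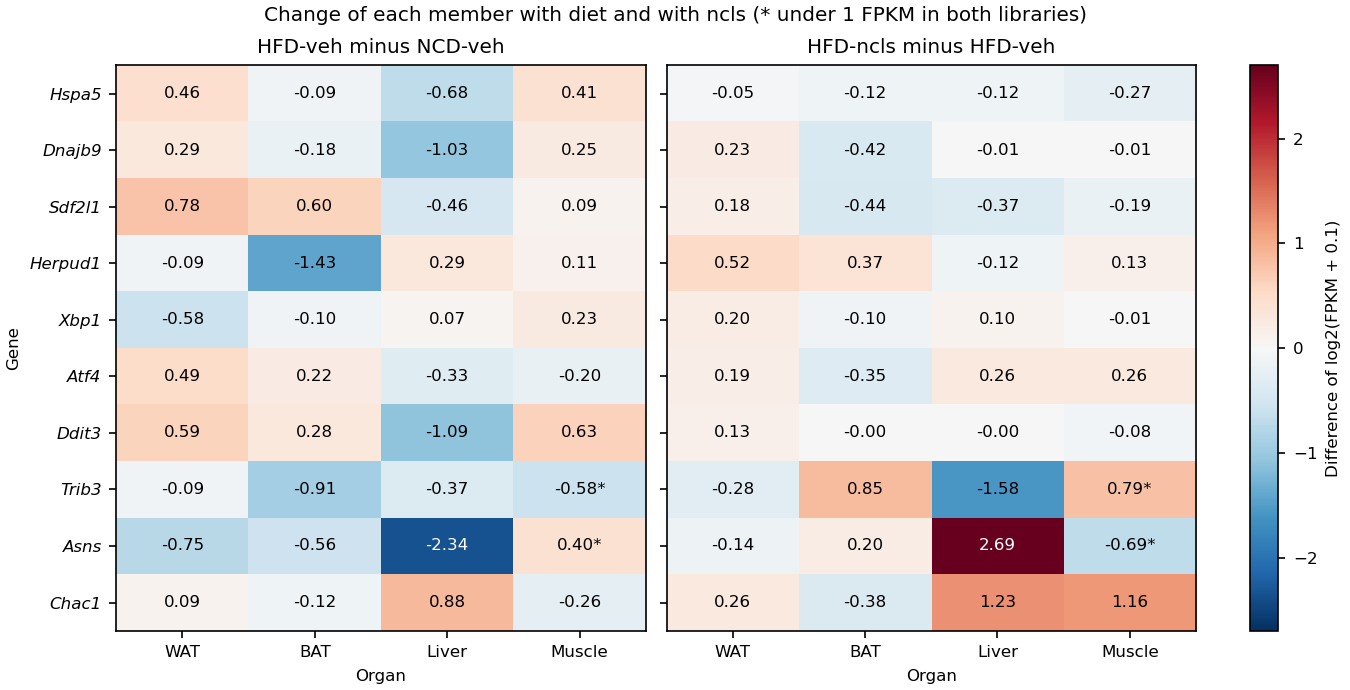
Difference in log2(FPKM + 0.1) of each gene (rows) in each organ (columns), for HFD-veh minus NCD-veh on the left and HFD-ncls minus HFD-veh on the right; red is higher, blue is lower, and an asterisk marks values under 1 FPKM in both libraries. The liver column holds the largest values, Asns at -2.34 with the diet and 2.69 with ncls.

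With genes under 1 FPKM in both libraries left out, 5 of 10 members differed past 1.4-fold with the diet in WAT, where 29.3% of all 12208 genes passed the same threshold. Sdf2l1, Atf4 and Ddit3 were higher, and Xbp1 and Asns lower. In liver 5 of 10 members passed against 23.8% of all genes, with Chac1 higher and Hspa5, Dnajb9, Ddit3 and Asns lower. In BAT 4 of 10 passed against 17.6%, with Sdf2l1 higher and Herpud1, Trib3 and Asns lower. In muscle, where Trib3 and Asns were under 1 FPKM, Ddit3 alone of 8 passed, near the 13.2% of all genes. The median difference of the members was 0.19 in WAT, -0.11 in BAT, -0.42 in liver and 0.17 in muscle, and that of all genes lay between -0.04 and 0.04. At 2-fold the diet counts were 0 of 10 members in WAT (9.11% of all genes), 1 of 10 in BAT (4.29%), 3 of 10 in liver (5.12%) and 0 of 8 in muscle (4.11%).

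Fewer members passed with ncls. Herpud1 was the only one of 10 past 1.4-fold in WAT, against 7.68% of all genes, Trib3 the only one of 10 in BAT, against 8.53%, and Chac1 the only one of 8 in muscle, against 13.9%. These 3 counts were each near the share of all genes. In liver 3 of 10 passed, Asns and Chac1 higher and Trib3 lower, against 14.9%, and the same 3 passed 2-fold, against 2.31% of all genes. Past 2-fold there were 0 of 10 members in WAT (1.7% of all genes), 0 of 10 in BAT (1.97%) and 1 of 8 in muscle (3.8%). Asns, Chac1 and Trib3 are genes that ATF4 is known to induce and hold CARE in their promoter window. Trib3 differed in the opposite direction to Asns and Chac1, and a part of ATF4 in these differences was not tested. The ncls difference in liver of Herpud1, the other member with CARE, was -0.12. The medians of the members were 0.18 in WAT, -0.11 in BAT, -0.0051 in liver and -0.0067 in muscle.

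**Figure D3:**
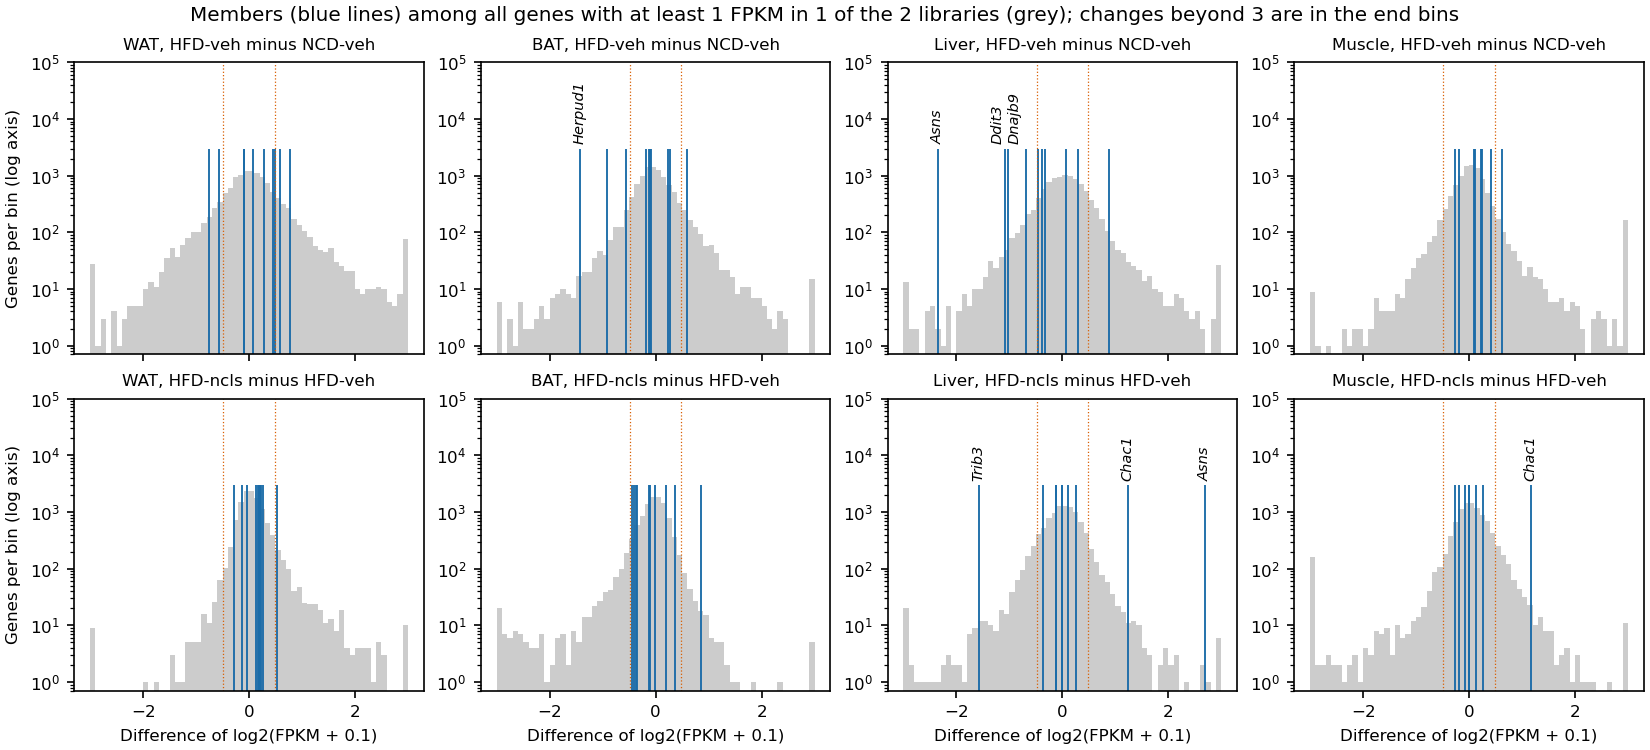
Distribution of the difference in log2(FPKM + 0.1) over all genes past the 1 FPKM limit (grey, genes per bin on a log axis), with the members as blue lines and the 1.4-fold limits dotted, for the diet (upper row) and ncls (lower row) in each organ; members past 2-fold are named. In WAT the members lie within 2-fold in both comparisons, and in liver Asns sits far out on the left with the diet and far out on the right with ncls.

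The other genes of both responses were described by 6 lists with 82 genes in all. With the diet 17 of 79 list genes were higher and 3 lower past 1.4-fold in WAT, where 16.3% and 13% of all genes were, 5 up and 7 down of 73 in BAT, 6 up and 9 down of 71 in liver, and 6 up and 5 down of 67 in muscle. With ncls the counts were 2 up and 0 down of 79 in WAT, 1 and 3 of 71 in BAT, 3 and 4 of 71 in liver, and 3 and 4 of 67 in muscle. Of the 3 lower in BAT, Gpt2 went from -0.56 to -0.17 after subtraction of the muscle and liver RNA that the BAT markers show. The shares of all genes higher and lower with the diet were 9.34% and 8.24% in BAT, 13.3% and 10.5% in liver, and 7.74% and 5.51% in muscle. With ncls they were 6.39% and 1.28% in WAT, 2.25% and 6.28% in BAT, 6.88% and 8.07% in liver, and 8.46% and 5.48% in muscle. Past 1.4-fold in either direction with the diet were 25.3% of the list in WAT, 16.4% in BAT and 21.1% in liver. Each was below the share of all genes there. In muscle it was 16.4%, against 13.2% of all genes. Of these muscle genes, Pdia3 (0.42), Fkbp2 (0.43) and Cth (-0.45) no longer passed after subtraction of liver and adipocyte RNA. After that subtraction 11.7% of all muscle genes passed, so that no excess is read from the muscle share. With ncls the list shares were 2.53% in WAT, 5.63% in BAT, 9.86% in liver and 10.4% in muscle, each below the share of all genes.

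Among 18 ER chaperones and folding enzymes, 3 were lower and 1 higher in liver with the diet, near the 23.8% of all genes past 1.4-fold there, with a median of 0.03. Creld2 and Manf, secreted or ER-lumen proteins known to follow ER stress, passed 2-fold. Creld2 had 37.5 FPKM in NCD-veh and 13.7 in HFD-veh, a difference of -1.45. Manf had 34.3 and 16.7 FPKM, a difference of -1.03. Hyou1, a large ER chaperone of the Hsp70 kind, was at -0.75 and Pdia6, a disulfide isomerase, at 0.54. In muscle 7.74% of all genes were higher with the diet. Of the list, 4 of 17 were higher, Pdia4 (0.79), Pdia3 (0.66), Manf (0.60) and Fkbp2 (0.59), and none lower, with a median of 0.30. HFD-veh muscle is the library with hepatocyte markers and the highest median share of adipocyte markers, and after subtraction of both shares these were 0.58, 0.42, 0.52 and 0.43, so that Pdia3 and Fkbp2 no longer passed. In WAT 1 of 18 was lower (Pdia4, -0.52), against 13% of all genes, and in BAT 0 of 17 passed, against 17.6%. With ncls none of the list passed in WAT, BAT or liver, and in muscle only Manf did (-0.64).

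Of 14 genes of ER-associated degradation, Syvn1, the ubiquitin ligase HRD1, had 43.0 FPKM in NCD-veh and 18.1 in HFD-veh liver (-1.24). Derl3, a channel protein of the same complex, had 6.62 and 2.99 FPKM (-1.12). No other gene of the list passed in liver with the diet, where 10.5% of all genes were lower, and the median of 14 was -0.17. Derl1 was lower in WAT (-0.49), 1 of 13 against 13% of all genes. Vimp (-0.77) and Derl3 (-0.75, from 1.21 to 0.679 FPKM) were lower in BAT, 2 of 14 against 8.24%. Herpud1, which belongs to the same machinery, was lower in BAT by more than either. With ncls Derl3 in liver (-0.51) was the only gene of the list past 1.4-fold, and 8.07% of all liver genes were lower.

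The list of sensors and eIF2 regulators had no gene past 2-fold. Eif2ak4, which encodes GCN2, was higher with the diet in WAT (0.61) and liver (0.64), and Eif2s1, a subunit of eIF2, in liver (0.65). In muscle Ppp1r15a, the GADD34 subunit that removes phosphate from eIF2, had 15.8, 8.20 and 13.9 FPKM. Its muscle differences were -0.94 with the diet and 0.75 with ncls, against the same HFD-veh library. Ern1, which encodes IRE1, went from 1.07 to 0.659 and 1.22 FPKM, and Eif2ak4 from 0.714 in HFD-veh to 1.27 in HFD-ncls. These were the 3 genes past 1.4-fold with ncls in muscle, all higher, of 10 with a median of 0.41. Ern1 and Eif2ak4 were under 1 FPKM in HFD-veh, so that they could enter only by being higher in HFD-ncls. The count and the median are in part set by this limit. Of all genes there, 8.46% were higher. In liver Atf6b was higher (0.52) and Ern1 lower (-0.54) with ncls.

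Among 12 genes downstream of ATF4 and CHOP, WAT had 6 of 11 higher and 0 lower with the diet, with a median of 0.53. Of all WAT genes, 16.3% were higher and 13% lower. Gdf15, a stress cytokine, had 0.199 FPKM in NCD-veh and 1.79 in HFD-veh (2.66). With less than 1 FPKM in NCD-veh, it could enter only by being higher, as could Gdf15 in BAT and Atf3 in muscle below. Atf3, a stress-induced transcription factor, had 2.62 and 12.5 FPKM (2.21). Ddit4, an inhibitor of mTOR, had 6.44 and 14.0 FPKM (1.11). Cebpb, Vldlr and Bcl2l11 passed 1.4-fold only. BAT also had more Gdf15 (2.45) and Atf3 (1.74) with the diet, but less Gadd45a (-1.35), Ddit4 (-1.08) and Vldlr (-0.74). In liver Gadd45a (1.77) and Gdf15 (1.06) were higher, while Fgf21, a hormone of fasting and amino acid stress, went from 8.83 to 3.29 FPKM (-1.40) and Atf5 from 261 to 114 FPKM (-1.20). In muscle Atf3 had 0.664, 3.83 and 1.29 FPKM, a difference of 2.36 with the diet and of -1.51 with ncls. Ddit4 in muscle was also lower with ncls, at 6.36 and 2.60 FPKM (-1.26). With ncls Ddit4 was higher in the other organs, by 0.99 in WAT, 0.69 in BAT and 0.93 in liver. Also with ncls, Atf3 was higher in WAT (0.54), Atf5 lower in BAT (-0.77), and Gdf15 (-0.60) and Gadd45a (-0.92) lower in liver.

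Of 14 genes of amino acid synthesis and transport, WAT had 7 of 13 higher and 1 lower (Gpt2, -0.99) with the diet, with a median of 0.54. In WAT 16.3% of all genes were higher with the diet and 13% lower. Slc7a11, the cystine importer, went from 5.17 to 13.3 FPKM (1.35), Mthfd2, of mitochondrial folate metabolism, from 1.85 to 4.37 FPKM (1.19) and Cth, of cysteine synthesis, from 3.56 to 7.45 FPKM (1.04). Asns itself was lower in the same WAT library. In BAT Phgdh, the entry enzyme of serine synthesis, was higher (1.24) and Cth lower (-1.15) with the diet. In muscle Aldh18a1, of proline synthesis, was lower (-1.11). Cth in muscle had a difference of 1.22 as deposited and of -0.45 after subtraction of the liver and adipocyte RNA in HFD-veh muscle, so that no direction is given for it. In liver, where Asns differed most, 1 of 6 was higher (Gpt2, 0.54) and 1 lower (Cth, -0.77) with the diet, and 0 of 6 passed with ncls, with a median of 0.09. Of all liver genes, 23.8% passed with the diet and 14.9% with ncls. The 12 cytosolic aminoacyl-tRNA synthetases had 3 higher in WAT with the diet (Yars, Cars and Iars, 0.56 to 0.70) and 1 higher in BAT (Wars, 0.49). The shares of all genes higher with the diet were 16.3% in WAT and 9.34% in BAT, the latter near the count. Yars in liver had 8.81, 6.12 and 9.42 FPKM, a difference of -0.52 with the diet and of 0.61 with ncls against the same HFD-veh library.

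**Figure D4:**
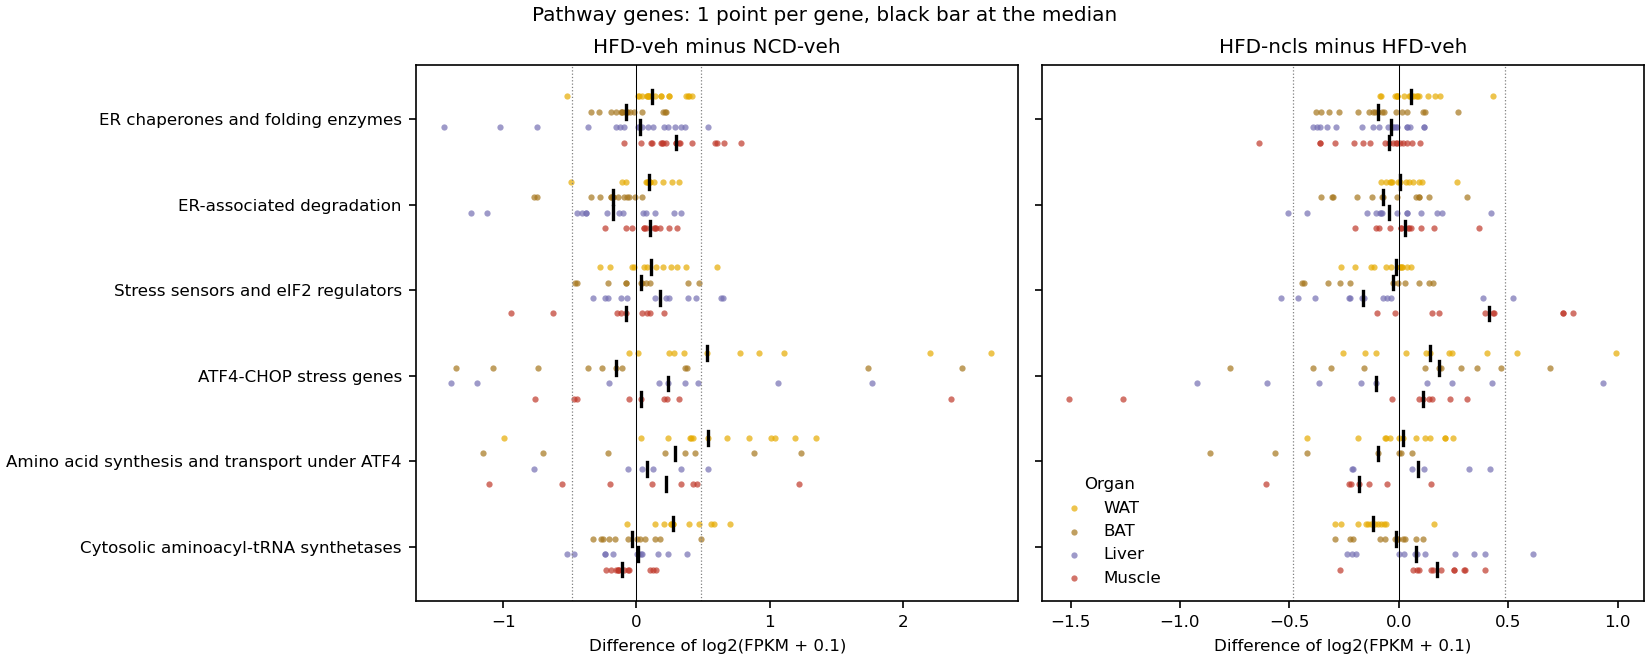
Difference in log2(FPKM + 0.1) of the genes in 6 lists (rows), 1 point per gene with at least 1 FPKM in either library, coloured by organ, with a black bar at the median and dotted lines at 1.4-fold, for the diet on the left and ncls on the right. The WAT medians of the ATF4-CHOP list (0.53) and of the amino acid list (0.54) lie past the 1.4-fold line with the diet, and no ncls median does.

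Markers of other cells moved with the WAT values. The 6 macrophage markers summed to 586, 863 and 1102 FPKM in WAT, with 5 of 6 higher with the diet, 6 of 6 higher with ncls and none at 0. The 6 adipocyte markers summed to 26378, 18599 and 17006 FPKM, with 2 of 6 higher with the diet and 1 of 6 with ncls. Cfd alone had 8163, 653 and 753 FPKM, so that much of the diet drop in the sum lay in 1 gene. Fabp4, Adipoq and Plin1 were also lower with the diet, and Lep and Cidec higher. The part of macrophages or adipocytes in the WAT differences of Sdf2l1, Ddit3, Xbp1, Asns and the list genes was not tested. Of 7 pancreatic acinar markers, the WAT sum was 5.61, 27.4 and 22.4 FPKM, of which Cela1 gave 5.58, 27.1 and 22.3 FPKM.

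For the 6 members with at least 1 FPKM in all 12 libraries, likeness was measured as Pearson's r over the 12 libraries after centring log2(FPKM + 0.1) within each organ, among 7125 genes. The 12 points come 3 to an organ and each HFD-veh library enters both steps, so that r is a description only. Hspa5 and Dnajb9 were alike (r = 0.905), as were Hspa5 and Ddit3 (0.891) and Dnajb9 and Ddit3 (0.797). Xbp1 and Herpud1 were unlike them, with r of -0.38 and 0.05 to Hspa5. The genes nearest to Hspa5 were Tab2 (0.952), Manf (0.944) and Mvp (0.940). Those nearest to Dnajb9 were Gm5779, a transcribed pseudogene in RefSeq (0.951), Syvn1 (0.941) and Creld2 (0.921). Whether Gm5779 is the place on chromosome X that shares pieces with Dnajb9, and so may share its reads, was not checked. Herpud1 was nearest to Cpox (0.976), Rpa2 (0.973) and Glul (0.967), and Xbp1 to Inmt (0.951) and Tm7sf3 (0.941). Atf4 was nearest to Lmna (0.966), Noc4l (0.942) and Eif4g3 (0.938), and Ddit3 to Mvp (0.967), Gngt2 (0.945) and Rbpms (0.941). Of these nearest genes, Manf, Syvn1 and Creld2 are also on the ER lists. In liver, Hspa5, Dnajb9 and Ddit3 were highest in NCD-veh (201, 34.8 and 9.61 FPKM), and so were Manf, Syvn1 and Creld2. These r values thus partly restate that 1 library, and r without liver was not computed.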

How the data were processed

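Gene-level FPKM values in 12 libraries were deposited by the authors as 1 table. Per the labels and methods, 1 µg of total RNA (TRIzol) went into Illumina libraries, and reads were aligned to mm9 with TopHat 2.0.11 and summarised with Cufflinks on RefSeq genes; whether strand was used is not given in the sources used here. Differences were taken as log2(FPKM + 0.1) between 2 libraries of an organ, over genes with at least 1 FPKM in either, and called past 1.4-fold or 2-fold, with no p-value because each group has 1 library. Genes named from the lists passed 2-fold (at most 3 each way per list), and other list genes past 1.4-fold were named after their values were seen. A gene under 1 FPKM in 1 of the 2 libraries could enter a comparison only by being higher in the other. Among the members this held for Asns, Trib3 and Chac1 in liver and for Sdf2l1 in muscle. The members and lists were chosen with earlier results of these data known. Shares of other organs are the median ratio of marker levels, over the 6 markers of a list with a value in both organs. The files hold no counts: relative depth came from steps between low values, and approximate fragments assume 1.67e+07 to 2.36e+07 per library (quartiles of the reference library, 1.29e+07 and 2.65e+07), and bound counting precision only. Transcript pieces were aligned with minimap2 2.31. Scripts ran in Python 3.11.15, pandas 2.3.3 and numpy 2.4.6, and were tested on simulated data. Alternatives were the pseudocount, filter, scaling, threshold and subtraction of other organs' RNA. Of the 3 genes most like each member by Pearson's r, 1 is not reported here.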

Additional observations from a re-analysis of the deposited data

Results flagged for a closer look

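Several genes differed past 1.4-fold in opposite directions in 2 organs under the same contrast. With 1 library per group, the difference between organs was not tested. All values are on the log2 scale. Ddit3 with the diet was higher in WAT (0.59) and muscle (0.63) and lower in liver (-1.09), gaps of 1.68 and 1.72. Trib3 with ncls was higher in BAT (0.85) and lower in liver (-1.58), a gap of 2.43.

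Among the list genes with the diet, the gap between liver and BAT was 3.12 and between liver and muscle 2.52 for Gadd45a, which was higher in liver. Higher in WAT and lower in BAT were Cth (2.19), Ddit4 (2.18), Vldlr (1.52) and Psph (1.24). Cth (1.81) and Yars (1.22) were higher in WAT and lower in liver, and Aldh18a1 (2.12) and Mthfd2 (1.75) higher in WAT and lower in muscle. Gpt2 was higher in liver and lower in WAT (1.53), Manf higher in muscle and lower in liver (1.63), and Pdia4 higher in muscle and lower in WAT (1.31). For Cth the gaps of muscle to BAT and liver were 2.37 and 1.99, but its muscle difference of 1.22 became -0.45 after subtraction of the RNA of other organs. With ncls, Ddit4 was lower in muscle and higher elsewhere, with gaps of 2.26 to WAT, 1.95 to BAT and 2.19 to liver. Atf3 with ncls was higher in WAT and lower in muscle (2.05), and Ern1 higher in muscle and lower in liver (1.34).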

How the results depend on the processing

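No paired analysis was possible because each organ and group has 1 library, and for the same reason no replicate could be left out. With a threshold of 2-fold and the diet, 0 of 10 members passed in WAT (9.11% of all genes) and 1 of 10 in BAT (4.29%). Liver had 3 of 10 (5.12%) and muscle 0 of 8 (4.11%). With ncls, 0 of 10 passed in WAT (1.7%) and 0 of 10 in BAT (1.97%). Liver then had 3 of 10 (2.31%) and muscle 1 of 8 (3.8%). Without a filter on FPKM, muscle had 2 of 10 members with the diet, against 14.8% of all genes. With ncls Trib3 (0.79) and Asns (-0.69) then also passed in muscle, on about 5.43 to 20.3 fragments. With at least 5 FPKM, liver had 1 of 7 members with ncls (Asns), against 10.3% of all genes. After rescaling by the median of all genes, WAT had 0 of 10 with ncls, against 7.03% of all genes. No member's difference past 1.4-fold turned its sign under these alternatives. With other organs' RNA subtracted, Chac1 in BAT with the diet, under 1.4-fold as deposited (-0.12), came to 0.50, and the list gene Cth in muscle went from 1.22 to -0.45 with the diet and from -0.61 to 1.03 with ncls. Of the members' differences, 76 of 76 kept their side with a pseudocount of 0.01 and 74 of 76 with a pseudocount of 1 (Atf4 in WAT and Sdf2l1 in BAT, diet). Rescaling kept 73 of 76, with the diet difference of Sdf2l1 in liver passing at -0.50, and subtraction of other organs' RNA kept 73 of 74. Values under about 40 fragments, as for Asns, Trib3 and Chac1 in some liver libraries, are limited by counting error.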
